A study of Mus musculus with 5 samples.

Results

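Lymphatic endothelial cells (LEC) of the adult mouse heart were taken from single-cell RNA libraries of sorted cardiac interstitial cells by the transcripts they carried. A cell was counted as LEC where the deposited value of Ccl21a was at least 3, where at least 2 of the 4 genes Prox1, Mmrn1, Flt4 and Reln had a value above 0, and where Ptprc and Pdgfra were at 0. The deposited value is the natural log of 1 plus the UMIs per 10000 UMIs of the cell (UMI, unique molecular identifier, 1 per captured transcript), so that the Ccl21a condition asks for about 19.1 UMIs per 10000. This rule found 398 LEC among 10961 cells. Cells were compared with the other endothelial cells of the same library, 4924 in all, defined by a value of Cdh5 or Pecam1 above 0 and Ptprc at 0. Because measured values chose the cells, every contrast between LEC and other endothelial cells is a description, and no test was run.

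The labels give 5 libraries in 4 sorts of adult cardiac interstitial cells, released with collagenase II, cleared of cardiomyocytes and sorted by flow cytometry on the surface proteins cKit and DDR2. cKit is the receptor for stem cell factor, DDR2 is a kinase of fibroblasts that binds collagen, and CD45 is the leukocyte phosphatase encoded by Ptprc. The sorts were cKit-/DDR2+ (1 library), cKit+/DDR2- (2 libraries, replicates 1 and 2), cKit+/DDR2+/CD45- (1 library) and cKit+/DDR2+/CD45+ (1 library). No genotype, strain, treatment, age or number of animals was given for any library in the labels. With 1 library in 3 of the 4 sorts, a difference between sorts and a difference between libraries cannot be told apart. The 2 cKit+/DDR2- libraries themselves held 436 and 3020 cells. Nothing in the labels says whether they came from separate animals, and sex-linked transcripts that bear on this are given below.

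Lymphatic vessels drain fluid, proteins and leukocytes from tissues, and in the heart they run from the inner wall to the outer surface. Their endothelium is set apart from blood endothelium by the transcription factor PROX1, responds to the growth factor VEGF-C through the receptor VEGFR3 (gene Flt4) and its co-receptor neuropilin 2 (Nrp2), and releases the chemokine CCL21, which guides dendritic cells and T cells that carry the receptor CCR7. Initial lymphatic capillaries carry LYVE1, a receptor for hyaluronan, whereas collecting vessels hold valves and carry less of it.

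The promoters of 3 genes that stood far apart between LEC and other endothelial cells are shown, as RefSeq gives them for the build GRCm38.p6, from 250 bases before to 50 bases after the annotated start. They were searched on both strands for ACAAT, the core bound by SOX factors, and for AGGTCA, a site core of nuclear receptors such as the product of Nr2f2, and capitals mark each match.
Ccl21a promoter: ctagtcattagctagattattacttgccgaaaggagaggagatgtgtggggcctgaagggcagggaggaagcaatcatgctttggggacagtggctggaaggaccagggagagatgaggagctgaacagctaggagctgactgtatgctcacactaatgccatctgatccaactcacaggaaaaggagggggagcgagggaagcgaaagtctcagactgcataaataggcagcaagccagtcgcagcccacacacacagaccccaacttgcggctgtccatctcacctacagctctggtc
Mmrn1 promoter: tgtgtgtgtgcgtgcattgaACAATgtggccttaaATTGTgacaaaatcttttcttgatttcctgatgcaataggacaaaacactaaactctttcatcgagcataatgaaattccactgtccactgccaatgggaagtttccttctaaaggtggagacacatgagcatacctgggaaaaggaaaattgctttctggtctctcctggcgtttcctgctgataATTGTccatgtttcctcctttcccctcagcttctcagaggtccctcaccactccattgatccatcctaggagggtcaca
Pdpn promoter: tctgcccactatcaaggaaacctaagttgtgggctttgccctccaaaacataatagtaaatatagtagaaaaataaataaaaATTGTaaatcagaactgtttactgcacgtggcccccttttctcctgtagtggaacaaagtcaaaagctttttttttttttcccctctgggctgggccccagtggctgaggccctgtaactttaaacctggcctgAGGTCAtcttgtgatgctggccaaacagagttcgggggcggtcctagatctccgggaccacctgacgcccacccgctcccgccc
The Ccl21a window lay on the minus strand at chr4:42773942-42774241 and held neither motif. The Mmrn1 window lay on the plus strand at chr6:60944067-60944366 and held 3 matches to ACAAT and none to AGGTCA. GENCODE vM21 annotates Mmrn1 at chr6:60924976-60989378, so this window lies inside the gene, at a RefSeq start downstream of the GENCODE start. The Pdpn window lay on the minus strand at chr4:143299515-143299814 and held 1 match to each. Of 32851 promoter windows in the table, 31.0% held ACAAT and 16.3% held AGGTCA. Neither motif was found in the windows of Reln and Flt4 or in either window of Prox1. A match is a run of letters and was not examined as a binding site.

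The Ccl21a gene itself is annotated (GENCODE vM21, GRCm38) on the minus strand at chr4:42772860-42773993, within a group of near-identical copies on the same chromosome. The transcript of Gm21541 differed from that of Ccl21a (870 bases) at 6 positions, and those of Ccl21b and Gm10591, annotated with 402 bases, at 2 positions. Which copy a UMI came from is therefore uncertain, and the value given for Ccl21a may hold reads of several copies. Gm21541 was listed apart with 46.5, 19.3 and 30.9 CPM in LEC of the libraries described below, where CPM is the UMIs of a gene per 1000000 UMIs, summed over the cells of a group. Adding it and Ccl21c to Ccl21a changed no count of genes.

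LEC numbered 80 in cKit+/DDR2- replicate 1, 228 in cKit+/DDR2- replicate 2 and 72 in cKit+/DDR2+/CD45-. They numbered 17 in cKit+/DDR2+/CD45+ and 1 in cKit-/DDR2+. As a share of all cells they formed 18.3% (95% Clopper-Pearson interval 14.8 to 22.3%) and 7.55% (6.63 to 8.55%) of the cKit+/DDR2- libraries and 5.43% (4.27 to 6.78%) of cKit+/DDR2+/CD45-. They formed 0.436% (0.254 to 0.697%) of cKit+/DDR2+/CD45+ and 0.0439% (0.00111 to 0.244%) of cKit-/DDR2+. As a share of endothelial cells, LEC formed 20.4% and 11.5% in the cKit+/DDR2- libraries, 5.84% in cKit+/DDR2+/CD45-, 6.59% in cKit+/DDR2+/CD45+ and 0.0687% in cKit-/DDR2+. All intervals cover counting error only. The cKit+/DDR2- libraries had the highest shares on both scales, and their intervals did not overlap each other. The cKit-/DDR2+ library held 1455 other endothelial cells beside its single LEC, and Pdgfra was detected in 18.6% of those 1455. In cKit+/DDR2+/CD45+ the macrophage genes C1qa and Lyz2 were detected in 60.6% and 70.5% of the 241 other endothelial cells. The shares of endothelial cells therefore rest on groups of unlike make-up.

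**Figure D1:**
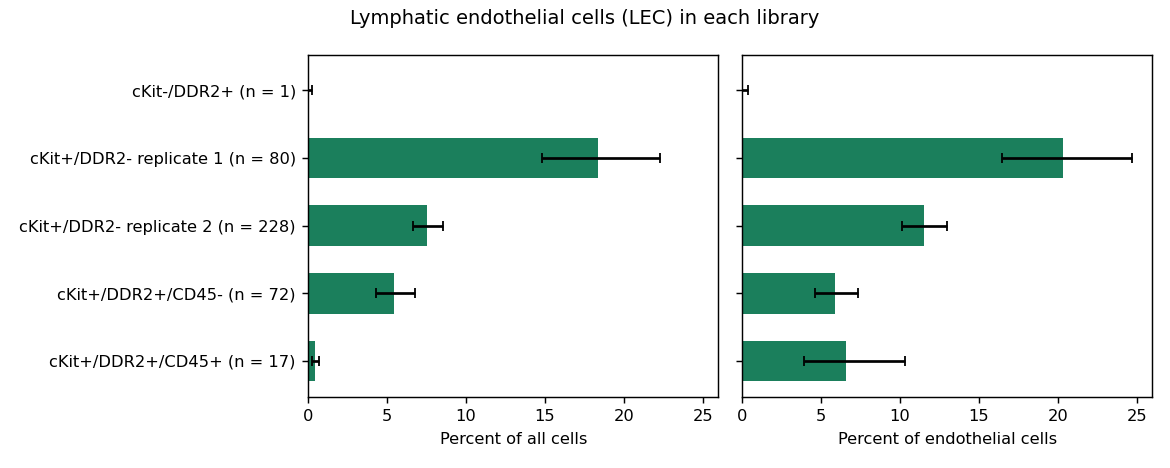
Share of LEC among all cells (left) and among endothelial cells (right) in each of the 5 libraries, in percent; bars start at 0, lines are 95% Clopper-Pearson intervals and n is the number of LEC. Both cKit+/DDR2- libraries have higher shares than the others, at 18.3% and 7.55% of cells, and cKit-/DDR2+ has 1 LEC. The interval of replicate 2 overlaps that of cKit+/DDR2+/CD45- (left) and that of cKit+/DDR2+/CD45+ (right). The endothelial cells (right) include cells with macrophage or fibroblast transcripts, in shares that differ between libraries.

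Some cells share a barcode between libraries. The libraries cKit+/DDR2- replicate 1 and cKit+/DDR2+/CD45+ had 190 barcodes in common, 43.6% of the cells of replicate 1, against 1 to 3 in every other pair. In all 190 the replicate 1 cell had more UMIs (median 12133.5 against 622.5), and the copy in cKit+/DDR2+/CD45+ held between 4.15 and 7.48% of its UMIs. Of the LEC, 15 of the 80 in replicate 1 and 9 of the 17 in cKit+/DDR2+/CD45+ lay on such barcodes, 8 of them LEC in both. The 9 held 532 to 828 UMIs, and the other 8 LEC of cKit+/DDR2+/CD45+ held 4554 to 18766 UMIs. Without cells on shared barcodes, LEC formed 26.4% of replicate 1 and 0.216% of cKit+/DDR2+/CD45+.

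**Figure D2:**
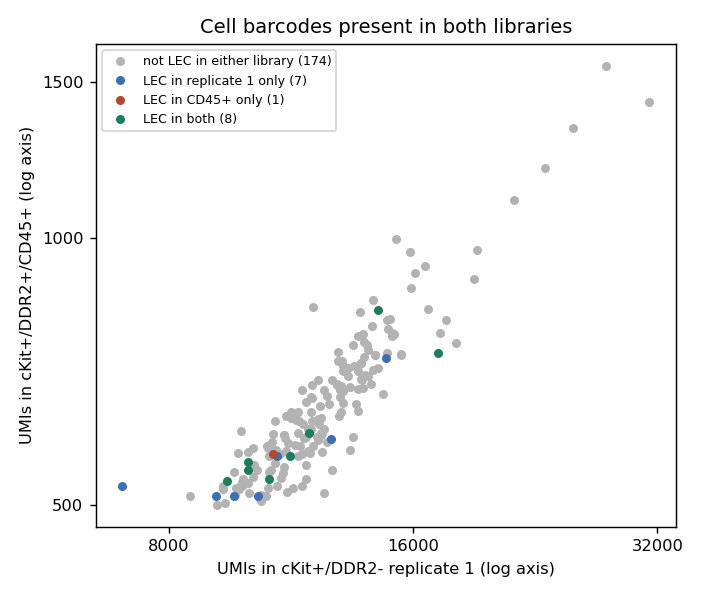
UMIs per cell of the 190 barcodes present in both cKit+/DDR2- replicate 1 (x axis, log) and cKit+/DDR2+/CD45+ (y axis, log); 1 point per barcode, coloured by which of its copies the rule counts as LEC. Every point has far fewer UMIs in cKit+/DDR2+/CD45+, and 8 barcodes are LEC in both.

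Levels were described in the 3 libraries with at least 50 LEC (380 LEC and 3228 other endothelial cells). Median UMIs per LEC were 7472.5 and 7520 in cKit+/DDR2- replicates 1 and 2 and 9914.5 in cKit+/DDR2+/CD45-, against 9857, 9276 and 9303 in the other endothelial cells. Those other cells were of several kinds. Npr3, a marker of endocardium, was detected in 55.9, 78.6 and 48.4% of them, so results below are also given against the cells with Npr3 above 0 and those with Npr3 at 0. Ccl21a had at least 1 UMI in 27.8, 16.7 and 10.4% of the other endothelial cells, and their pooled Ccl21a level was 121, 39.8 and 17.7 CPM.

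The genes that chose the cells had these levels in cKit+/DDR2- replicate 1, replicate 2 and cKit+/DDR2+/CD45-, in that order throughout. Ccl21a stood at 36979, 27084 and 26893 CPM. It was among the most abundant transcripts of LEC, beside the nuclear RNA Malat1 (39684, 22925 and 16779 CPM). Mmrn1, which encodes the secreted protein multimerin 1, had 3410, 3713 and 3493 CPM. Flt4 had 1240, 1068 and 1236 CPM, and Reln, which encodes the extracellular signal reelin, had 1117, 1146 and 933 CPM. Prox1 was lower, at 490, 649 and 653 CPM. In the other endothelial cells Prox1 stood at 29.8, 19.6 and 20.6 CPM.

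In the 3 libraries, 71, 207 and 69 LEC carried all 4 of Prox1, Mmrn1, Flt4 and Reln. The lowest Ccl21a value among LEC was 3.51, 3.09 and 3.497. Just outside the rule, 6, 21 and 8 cells met every other condition with a Ccl21a value above 0 and below 3, the highest at 2.69, 2.98 and 2.93. A further 3, 6 and 1 cells passed the Ccl21a condition with fewer than 2 of the 4 genes, at median depths of 977, 600 and 803 UMIs. The condition on Ptprc and Pdgfra kept out 2, 5 and 0 cells. Lyve1, given as a marker of these cells but not used by the rule, had 2592, 2836 and 2354 CPM in LEC and 62.3, 137 and 102 CPM in other endothelial cells. It was detected in 95, 99.1 and 98.6% of LEC. Lyve1 was thus high in LEC of every library, and it was measured in the same cells that the rule chose.

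Over all 3755 genes with at least 50 CPM in LEC or in other endothelial cells, averaged over the 3 libraries, 377 genes (10.0%) were at least 2-fold higher in LEC in every library and 283 (7.54%) at least 2-fold lower, 660 (17.6%) in all. Ratios are log2 values after adding 1 CPM. The median over all these genes was 0.18. Without cells on shared barcodes, 353 genes were higher and 268 lower, of which 336 and 249 were among those called with all cells. Against other endothelial cells with Npr3 above 0, 452 genes were higher and 300 lower, and against those with Npr3 at 0, 331 and 256. The 3 libraries are from 2 sorts, and the SD given below is over these libraries. Since LEC were chosen by 5 genes of the same cells, with Ptprc and Pdgfra at 0, these counts are not support for the choice.

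**Figure D3:**
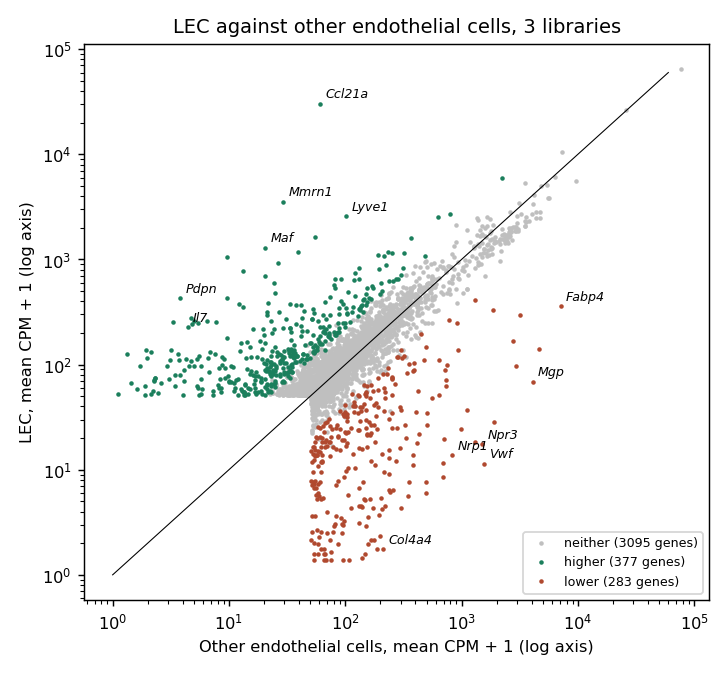
Mean CPM + 1 of each of 3755 genes in LEC (y axis, log) against other endothelial cells (x axis, log), averaged over 3 libraries; green genes are at least 2-fold higher in LEC in every library (377), red genes at least 2-fold lower (283), and the line marks equal levels. Ccl21a stands farthest above the line, and Vwf, Npr3, Nrp1 and Col4a4 lie far below it.

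The transcription factors of the lymphatic identity list split. Of 15 factors listed, 14 reached the minimum level, 4 were 2-fold higher in LEC in every library and 2 were 2-fold lower, against 10.0% and 7.54% over all genes, with a list median of 0.62. The 4 include Prox1, a gene of the rule, whose call the choice of cells fixed. Maf, a bZIP factor, had 1209, 1438 and 1229 CPM in LEC and 22.1, 26.4 and 10.2 CPM in other endothelial cells. Tbx1, a T-box factor that acts upstream of Flt4 in mouse lymphatic growth, had 139, 130 and 125 CPM in LEC and 2.01, 0.822 and 0.567 CPM in the others. Both groups stood apart in every library for these factors. Nr2f2, which encodes the venous and lymphatic factor COUP-TFII, had a smaller difference (531, 657 and 696 against 221, 267 and 217 CPM, mean log2 ratio 1.41 ± 0.23, SD, n = 3 libraries). Its ratio was 1.03 against cells with Npr3 above 0, where it was not 2-fold apart in every library.

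The 2 factors at lower levels in LEC were Foxc1 and Gata2. Foxc1, a forkhead factor, had 24.9, 43.1 and 47.0 CPM in LEC and 275, 342 and 268 CPM in the others. Gata2, needed for lymphatic valves, had 26.6, 45.9 and 44.3 CPM in LEC and 109, 173 and 135 CPM in the others. Against cells with Npr3 at 0 neither was 2-fold lower in every library (mean log2 ratios -0.68 for Foxc1 and -0.96 for Gata2). Sox18, which activates Prox1 in the mouse embryo, had 325, 186 and 270 CPM in LEC against 207, 91.0 and 187 CPM. It was not 2-fold apart in each library. Nfatc1, a factor of valve and endocardial development, stood at 121, 122 and 79.2 CPM against 50.6, 63.2 and 40.8 CPM.

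Surface and secreted genes of lymphatic endothelium formed the list with the largest number of members above other endothelial cells. Of 30 genes, 26 reached the minimum level, 23 were 2-fold higher in every library and 1 was lower, against 10.0% and 7.54% over all genes. The list was drawn up with earlier results of these cells known, so this count is a description of the members. Pdpn, which encodes podoplanin, the mucin-like protein that binds platelet CLEC-2, had 535, 391 and 355 CPM in LEC and 4.69, 2.34 and 1.42 CPM in the others (mean log2 ratio 6.88 ± 0.32, SD, n = 3 libraries). Fgl2, which encodes a fibrinogen-like protein, had 1717, 1666 and 1574 CPM against 66.0, 53.2 and 42.2 CPM. Thy1, a small anchored surface protein, had 244, 262 and 275 CPM against 6.70, 4.995 and 4.73 CPM. These are pooled levels, and single cells did not all follow them. Pdpn had no UMI in 8, 27 and 5 LEC and was detected in 2.56, 1.60 and 0.603% of other endothelial cells.

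Mrc1, the mannose receptor known from macrophages and lymphatic endothelium, had 227, 203 and 289 CPM in LEC against 4.69, 4.87 and 1.80 CPM. Stab1, a scavenger receptor, had 978, 706 and 753 CPM against 227, 191 and 161 CPM. The macrophage list (8 genes) summed to 51.5, 113 and 4.03 CPM in LEC and 32.2, 105 and 38.3 CPM in other endothelial cells. In cKit+/DDR2+/CD45-, 6 of its 8 genes were at 0 in LEC. The part of macrophage RNA in the Mrc1 and Stab1 levels was not tested. Ackr2, a decoy receptor for inflammatory chemokines, was low in LEC (43.2, 45.3 and 61.8 CPM) but lower in the others (5.03, 8.03 and 5.86 CPM). Ackr4, a scavenger of CCL21, had 0, 0.566 and 0 CPM in LEC and 12.1, 11.6 and 12.0 CPM in the others. It did not reach the minimum level. The exception among the measured members was Cd59a, an inhibitor of complement, with 8.30, 28.9 and 34.9 CPM in LEC and 296, 300 and 230 CPM in the others.

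**Figure D4:**
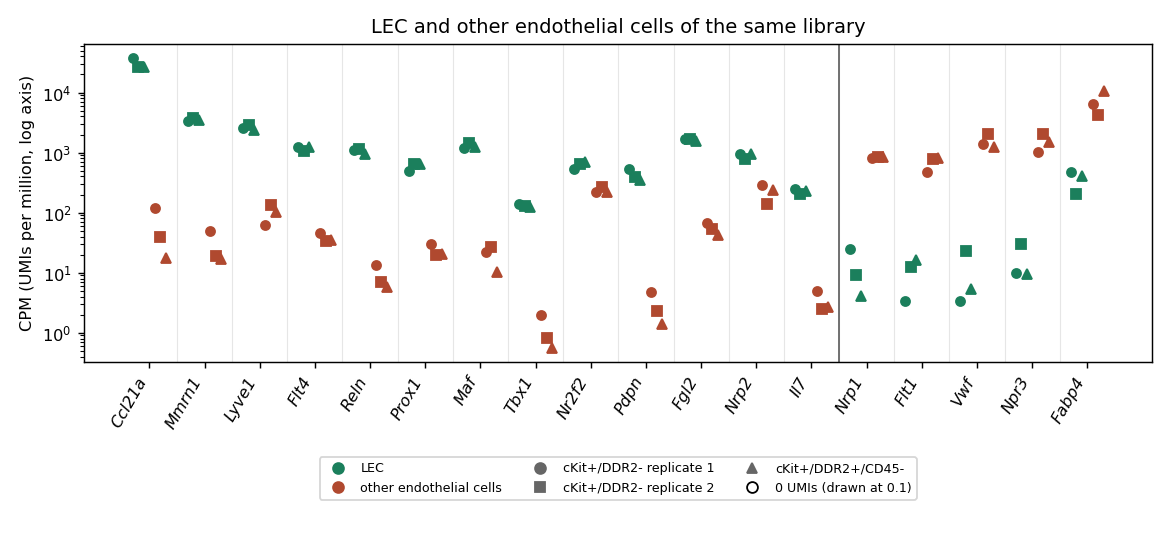
CPM (log axis) of 18 genes in LEC (green) and other endothelial cells (red) of 3 libraries, 1 symbol per library. Left of the line stand 13 genes higher in LEC, from Ccl21a to Il7, and right of it 5 genes lower in LEC, with Nrp1 at 24.9, 9.06 and 4.03 CPM against 800, 838 and 844 CPM.

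The receptors for VEGF differed by type. The VEGF list held 13 genes, of which 6 reached the minimum level, 3 were higher in LEC and 2 lower, against 10.0% and 7.54% over all genes. Of the 3 higher genes, Flt4 belongs to the rule and the others are Nrp2 and Pgf. Nrp2, which binds VEGF-C beside VEGFR3, had 940, 789 and 939 CPM in LEC and 287, 142 and 236 CPM in the others. Its paralog Nrp1, which binds VEGF-A, went the other way at 24.9, 9.06 and 4.03 CPM in LEC against 800, 838 and 844 CPM. Flt1, a receptor for VEGF-A and placental growth factor, had 3.32, 12.5 and 16.1 CPM in LEC and 482, 795 and 802 CPM in the others. Both were 2-fold lower in LEC in every library and against either kind of comparison cell. Kdr, the main receptor for VEGF-A, was not 2-fold apart in each library (616, 663 and 706 against 422, 273 and 596 CPM).

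Among ligands, Pgf, the gene of placental growth factor, had 266, 224 and 160 CPM in LEC and 50.6, 5.44 and 13.7 CPM in the others. Vegfc, the ligand of VEGFR3, had 0 CPM in LEC of replicates 1 and 2 and 12.1 CPM in LEC of cKit+/DDR2+/CD45-, against 16.1, 26.6 and 30.8 CPM. Its level was too low for the comparison. Angpt2, an angiopoietin, had 99.6, 108 and 110 CPM in LEC and 36.5, 10.9 and 17.2 CPM in the others. It was the single member of 4 measured in the angiopoietin and TIE list that was 2-fold apart in every library, against 17.6% over all genes. Its receptor Tek was not 2-fold apart (161, 92.3 and 117 against 250, 313 and 303 CPM). Against cells with Npr3 at 0, Nrp2 (1.13), Pgf (2.01) and Angpt2 (1.63) kept positive mean log2 ratios without being 2-fold higher in every library.

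In the adrenomedullin list, whose receptor parts Calcrl and Ramp2 act in mouse lymphatic growth, none of the 5 genes measured was 2-fold apart, against 17.6% over all genes. Ramp2 had 774, 700 and 817 CPM in LEC and 835, 666 and 693 CPM in the others. In the sphingosine phosphate list none of the 4 genes measured was 2-fold apart either. Spns2, which exports sphingosine phosphate to lymph, had 98.0, 88.4 and 72.5 CPM in LEC against 64.4, 35.9 and 32.1 CPM. S1pr1, a receptor for that lipid, had 380, 310 and 342 CPM against 232, 233 and 304 CPM. With so few genes these counts are near the share over all genes, and a ratio short of 2-fold does not show equal levels.

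Of the chemokines, cytokines and adhesion genes, 24 were listed and 9 measured. Il7 and Il33 were higher in LEC and Cxcl12, Csf1 and Vcam1 lower, against 10.0% and 7.54% over all genes. Il7, which sustains lymphocytes, had 246, 202 and 231 CPM in LEC and 5.03, 2.53 and 2.65 CPM in the others. It was detected in 72.5, 70.2 and 76.4% of LEC. After thinning each cell to 3000 UMIs, which kept 76, 221 and 71 LEC, Il7 had a UMI in 46.1, 44.8 and 38.0% of LEC and in 0.337, 0.772 and 0.658% of other endothelial cells. Il33, an alarmin, had 146, 134 and 125 CPM against 7.04, 17.6 and 9.65 CPM. Vcam1, an adhesion molecule for leukocytes, had 1.66, 10.8 and 2.69 CPM in LEC and 498, 515 and 467 CPM in the others. Cxcl12, a chemokine, had 126, 77.6 and 51.0 CPM against 269, 166 and 701 CPM, and its mean log2 ratio turned to 1.09 against cells with Npr3 above 0. At 3000 UMIs per cell Cxcl12 had a UMI in 23.7, 17.6 and 15.5% of LEC and in 25.9, 14.6 and 43.6% of the others. By this share LEC were above the others in replicate 2.

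Several guidance genes other than Reln were also higher. In the axon guidance and ephrin list of 20 genes, 12 reached the minimum level, and Reln, Sema3a, Sema3d, Sema3f, Sema6a and Unc5b were 2-fold higher in every library, against 10.0% over all genes. Reln is a gene of the rule, and none was lower. Sema3d, a secreted semaphorin, had 277, 230 and 250 CPM in LEC and 8.04, 5.88 and 6.34 CPM in the others (mean log2 ratio 5.04 ± 0.08, SD, n = 3 libraries). Sema3a, a repulsive cue that acts on lymphatic valves in mice, had 121, 164 and 191 CPM against 20.8, 22.3 and 14.9 CPM. Against cells with Npr3 at 0, 3 of 13 measured members were higher and 2 lower, and Sema3f (1.46), Sema6a (1.25) and Unc5b (0.83) were not 2-fold higher in every library.

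Junction genes were mixed, with 1 higher and 4 lower in LEC of 10 measured, against 10.0% and 7.54% over all genes. Set against cells with Npr3 at 0, none was higher and 3 of 11 were lower. Cldn5, the main claudin of endothelium, had 1932, 1227 and 1659 CPM in LEC and 553, 115 and 428 CPM in the others, but against cells with Npr3 at 0 its mean log2 ratio was 0.66. Esam and Jam2, both adhesion molecules at junctions, were lower in LEC. Jam2 had 1.66, 6.23 and 2.69 CPM against 194, 193 and 271 CPM, and Esam had 38.2, 16.4 and 21.5 CPM against 412, 223 and 347 CPM. Cdh5, the gene of VE-cadherin, which also served to define the comparison cells, had 488, 486 and 493 CPM in LEC and 546, 403 and 665 CPM in the others. Gja1, which encodes the gap junction protein connexin 43, was higher in LEC, with 264, 196 and 168 CPM against 62.0, 24.7 and 49.8 CPM. Its mean log2 ratio was 1.12 against cells with Npr3 at 0, where it was not 2-fold higher in every library.

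Of the valve and collecting vessel list, 6 of 13 genes were measured. Itga9 and Gja1 were higher in LEC, and Gata2 and Fn1, the fibronectin gene, were lower, against 10.0% and 7.54% over all genes. Against cells with Npr3 at 0, 1 of 6 measured members was higher and 0 were lower, and the mean log2 ratio of Fn1 was -0.90. Foxc2, a forkhead factor of collecting vessels and valves, had 29.9, 36.8 and 34.9 CPM in LEC and 36.2, 41.7 and 29.7 CPM in the others, below the minimum level. At 3000 UMIs per cell it had a UMI in 7.89, 10.9 and 8.45% of LEC and in 10.1, 9.74 and 5.83% of the others. Itga9, an integrin of valves, had 267, 264 and 297 CPM in LEC against 34.2, 49.0 and 42.5 CPM. Cldn11, a claudin of lymphatic valve cells, had a UMI in 1.32, 1.81 and 1.41% of thinned LEC. Lyve1 had a UMI in 92.1, 98.6 and 95.8% of the same thinned LEC.

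The BMP and TGF-beta list held 6 genes lower and 2 higher in LEC of 14 measured, against 7.54% and 10.0% over all genes. Compared with cells with Npr3 at 0, 3 of 13 were lower and 2 higher, Bmp6 and Eng were no longer 2-fold lower in every library, and Smad6 was under the minimum level. Tgfbr2, the type II receptor for TGF-beta, had 631, 566 and 591 CPM in LEC and 153, 249 and 201 CPM in the others, and its ligand gene Tgfb2 had 121, 122 and 111 CPM against 8.38, 15.9 and 18.7 CPM. Eng, the co-receptor endoglin, was lower at 300.5, 357 and 336 CPM against 1948, 2086 and 1556 CPM, with a mean log2 ratio of -1.03 against cells with Npr3 at 0. The inhibitory SMAD genes were also lower. Smad6 had 1.66, 3.40 and 2.69 CPM in LEC against 171, 149 and 150 CPM, and Smad7 had 19.9, 26.6 and 16.1 CPM against 431, 498 and 359 CPM.

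Matrix genes were mixed, with 3 higher and 5 lower of 18 measured, against 10.0% and 7.54% over all genes. Against cells with Npr3 above 0, 5 of 16 were higher and 2 lower, and against cells with Npr3 at 0, 1 of 18 was higher and 6 lower. Col4a1 and Col4a2, the main collagen IV chains, were higher against the former (mean log2 ratios 1.32 and 1.32) and lower against the latter (-1.86 and -2.33). Fbln5, an elastic fibre protein, had 435, 319 and 313 CPM in LEC and 12.4, 12.9 and 11.3 CPM in the others. Mgp, which encodes matrix Gla protein, had 26.6, 135 and 41.6 CPM in LEC and 4268, 4914 and 3087 CPM in the others. The fibroblast list (8 genes) summed to 33.2, 110 and 67.1 CPM in LEC and to 2076, 3423 and 2304 CPM in other endothelial cells, where Pdgfra was detected in 2.24, 2.85 and 3.53% of cells. Dcn, a proteoglycan gene of that list and one of the 15 lowest genes in LEC, had 13.3, 44.2 and 25.5 CPM in LEC against 1688, 2294 and 1695 CPM. At 3000 UMIs per cell it had a UMI in 55.2, 73.6 and 48.5% of other endothelial cells and in 3.95, 9.05 and 8.45% of LEC. Its mean log2 ratio was -6.59 against cells with Npr3 above 0 and -4.27 against those with Npr3 at 0. The part of fibroblasts in the other endothelial group was not tested. Leaving out comparison cells with Pdgfra above 0 gave 379 higher and 281 lower genes.

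Many, but not all, genes of blood capillaries and endocardium were lower in LEC. Of the capillary and fatty acid uptake list, 16 of 20 genes were measured and 11 were 2-fold lower in every library, against 7.54% over all genes. The other 5 were Gpihbp1, Rbp7, Aqp1, Cd300lg and Kdr, and Aqp1, a water channel gene, had 1102, 689 and 764 CPM in LEC against 519, 260.3 and 526 CPM. Fabp4, a fatty acid carrier, had 467, 203 and 402 CPM in LEC and 6324, 4289 and 10669 CPM in the others. Cd36, a fatty acid uptake receptor, had 36.5, 28.3 and 43.0 CPM against 874, 598 and 1870 CPM. Set against cells with Npr3 at 0, 15 of 20 measured members were lower, and against cells with Npr3 above 0, 6 of 11 were lower and 3 higher. Of the endocardial list, 13 of 16 genes were measured, 11 were lower and Sema3d was higher, against 7.54% and 10.0% over all genes. Npr3, a receptor that clears natriuretic peptides, had 9.96, 30.0 and 9.40 CPM in LEC against 1013, 2024 and 1501 CPM. Nrg1, a growth factor of endocardium, had 0, 2.83 and 0 CPM against 124, 198 and 149 CPM. Against cells with Npr3 at 0, 2 of 7 measured endocardial genes were lower and 2 higher, and Plvap turned from -3.04 to 0.39 in mean log2 ratio.

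Among the 15 genes highest in LEC, ranked by the smallest log2 ratio over the libraries, were Ccl21a, Pdpn, Apba2, Reln, Mmrn1, Lrrn4cl, Maf, Tbx1, Tc2n, Kbtbd11, Il7, Dtx1, Duox2 and Adamtsl1. Several are outside the lists above. Apba2, an adaptor protein gene known from neurons, had 89.7, 151 and 133 CPM in LEC and 0, 0.632 and 0.378 CPM in the others. Dtx1, a ligase gene of the Notch pathway, had 282, 301 and 251 CPM against 6.37, 3.48 and 1.32 CPM. Duox2, an oxidase gene known from thyroid, had 178, 109 and 124 CPM against 3.69, 1.64 and 1.13 CPM. Kbtbd11 had 105, 130 and 106 CPM against 1.34, 1.14 and 0.473 CPM. All 15 kept their side against either kind of comparison cell.

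The 15 lowest, by the same ranking, were Vwf, Col4a4, Cyp1b1, Npr3, Car8, Adh1, Epha7, Nrg1, Dcn, Dpp4, Entpd1, Flt1, Kcnt2, Vcam1 and Plagl1. Vwf, the gene of von Willebrand factor, had 3.32, 22.7 and 5.37 CPM in LEC and 1374, 2048 and 1258 CPM in the others. Col4a4, a basement membrane collagen chain, had 0, 2.27 and 0 CPM in LEC against 166, 281 and 186 CPM. Entpd1, which encodes the ATP-cleaving enzyme CD39, had 0, 3.40 and 0 CPM against 154, 207 and 167 CPM. Each of these genes had UMIs in LEC of replicate 2. Against the comparison cells with Npr3 at 0, Npr3 itself had a mean log2 ratio of 3.93 by the choice of those cells, and the other 14 genes had negative ratios. Of these 14, Col4a4, Cyp1b1, Adh1, Epha7, Nrg1, Dpp4, Kcnt2 and Plagl1 did not reach the minimum level in that comparison. Vwf, Car8, Dcn, Entpd1, Flt1 and Vcam1 were 2-fold lower there in every library.

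Kit, the gene of the sorted receptor, was low in LEC of cKit-sorted libraries. It had 14.9, 17.0 and 10.7 CPM in LEC and 43.9, 9.86 and 24.6 CPM in the other endothelial cells. At 3000 UMIs per cell it had a UMI in 1.32, 4.07 and 2.82% of LEC and in 10.4, 2.67 and 6.48% of the others. LEC were above the others in replicate 2 and below them in the other 2 libraries. Kitl, the ligand of cKit, had 13.3, 19.3 and 38.9 CPM in LEC against 222, 178 and 357 CPM. Ddr2 had 0, 1.13 and 0 CPM in LEC, and in cKit+/DDR2+/CD45-, a sort positive for the DDR2 protein, it had a UMI in 0 of 71 thinned LEC, which allows a share of LEC with a UMI at this depth of up to 4.23%. Among other endothelial cells of that library 1.97% had a Ddr2 UMI. Transcript and surface protein need not follow each other, and their relation was not tested.

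LEC also differed among themselves. At 3000 UMIs per cell, the ratio of variance to mean over LEC had a median of 1.13, 1.09 and 1.07 over 1888 genes. It was highest for Ccl21a (29.9, 29.2 and 28.5) and Malat1 (31.2, 29.9 and 24.7). Their means were 112, 82.1 and 80.8 thinned UMIs for Ccl21a and 118, 70.9 and 49.8 for Malat1. At a given relative spread this ratio rises with the mean, so it does not rank genes by relative spread. The rule also cut Ccl21a at the low end. By the same ratio Igfbp5, which encodes a binding protein for insulin-like growth factors, followed at 8.87, 17.2 and 14.7. Its means were 4.64, 6.32 and 7.27 thinned UMIs. Nts, the neurotensin gene, reached 24.6, 5.86 and 4.84, with a UMI in 52.6, 38.9 and 35.2% of thinned LEC. Immediate early genes such as Fos (13.05, 8.14 and 7.16) and Jun (6.33, 7.85 and 6.47) were among the 10 highest by this ratio.

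Among 12 genes compared pairwise across thinned LEC of 1 library, Spearman's rho, ranked by the smallest of the 3 libraries, was highest for Mmrn1 with Reln (0.45, 0.37 and 0.54) and for Mmrn1 with Lyve1 (0.39, 0.27 and 0.52). Reln and Nts went in opposite directions (-0.23, -0.23 and -0.29). Ccl21a was near 0 with Lyve1 in the cKit+/DDR2- libraries (-0.02 and 0.01) and -0.16 in cKit+/DDR2+/CD45-. These are descriptions across cells of the same library at equal depth, with no test. The cells are not independent samples.

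Between libraries, LEC of cKit+/DDR2- replicates 1 and 2 had 95 of 3650 genes (2.60%) at least 2-fold apart. LEC of cKit+/DDR2+/CD45- differed so from replicate 1 in 154 of 3701 genes (4.16%) and from replicate 2 in 51 of 3586 (1.42%). In other endothelial cells the same pairs of libraries had 4.30%, 2.44% and 3.29% of genes apart. In LEC the gap between the 2 cKit+/DDR2- libraries was therefore wider than that between replicate 2 and the other sort. Replicate 1 also stood apart in sex-linked and very abundant transcripts. Xist, the RNA of the inactive X chromosome, had 0, 333 and 808 CPM in LEC, and the Y-linked Ddx3y had 78.0, 0 and 0 CPM. By these values LEC of replicates 1 and 2 were not all from 1 animal. The gap between these replicates is thus one between libraries that differ in sex-linked transcripts. Gm42418, a predicted gene, had 17206, 88236 and 87908 CPM.

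Taking only genes 2-fold apart from both cKit+/DDR2- libraries on the same side, 7 of 3615 genes (0.194%) were higher and 18 (0.498%) lower in LEC of cKit+/DDR2+/CD45-. With 1 library of that sort this is a comparison of libraries, and no test was made. In other endothelial cells the same comparison gave 14 (0.433%) and 5 (0.155%) of 3236 genes, and 1 gene was called the same way in both, 4.0% of the 25 calls in LEC and 5.26% of the 19 in the others. Without cells on shared barcodes LEC had 7 higher and 19 lower genes, of which 7 and 15 were the same. Left to replicate 2 alone, the counts were 13 and 38, and to replicate 1 alone, 50 and 104.

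The higher genes, other than Xist, were Atf5, Postn, Gap43, Ptx3, Capg and B4galt6. Atf5, a bZIP factor of stress responses, had 14.9 and 18.7 CPM in LEC of replicates 1 and 2 and 71.2 CPM in LEC of cKit+/DDR2+/CD45-. Gap43, known for growing nerve endings, had 78.0 and 72.5 CPM against 177 CPM. It was itself 2-fold higher in LEC than in other endothelial cells in each library, where it had 5.70, 0.948 and 1.42 CPM. Ptx3, a secreted pentraxin of innate immunity, had 36.5 and 34.6 CPM against 83.3 CPM. After thinning, Gap43 had a UMI in 13.2, 16.3 and 15.5% of LEC and Ptx3 in 6.58, 8.14 and 16.9%. The share of LEC with Gap43 was close between the libraries although its CPM was not.

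**Figure D5:**
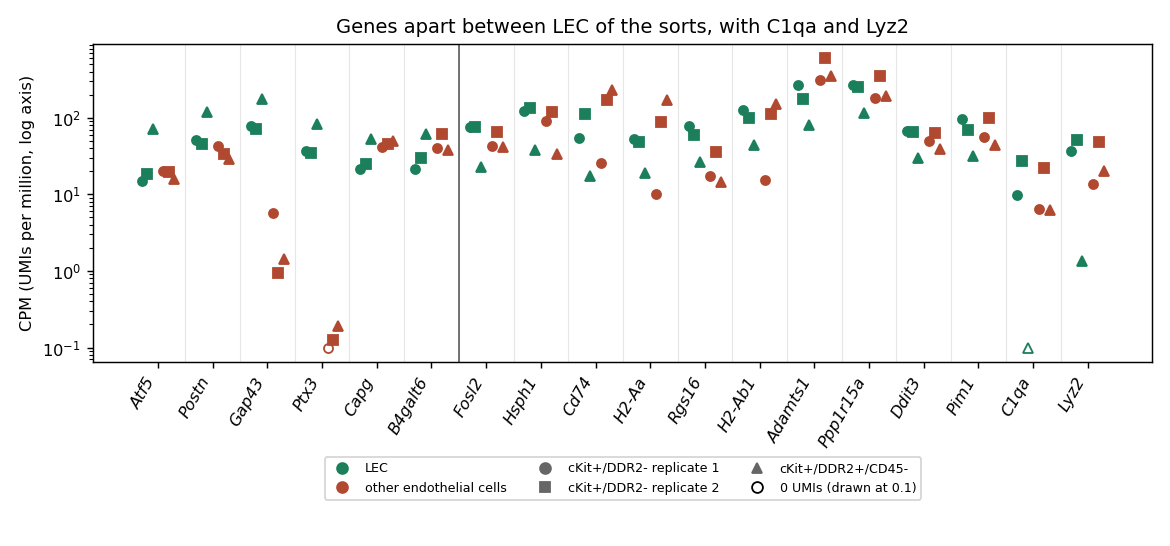
CPM (log axis) in LEC (green) and other endothelial cells (red) of 3 libraries, 1 symbol per library, for 6 genes higher (left of the line) and 10 genes lower (right) in LEC of cKit+/DDR2+/CD45-, followed by the macrophage genes C1qa and Lyz2. Open symbols mark 0 UMIs, drawn at 0.1. Cd74 in LEC stands at 54.8, 113 and 17.5 CPM, and C1qa at 9.96, 27.2 and 0 CPM.

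Genes of MHC class II, which presents antigen to CD4+ T cells, were among the lower ones. All 3 measured of 7 listed were at least 2-fold lower in LEC of cKit+/DDR2+/CD45-, against 0.498% over all genes, with a median log2 ratio of -1.38. Cd74, the invariant chain, had 54.8 and 113 CPM in LEC of replicates 1 and 2 and 17.5 CPM in LEC of cKit+/DDR2+/CD45-. H2-Aa had 53.1, 48.2 and 18.8 CPM, and H2-Ab1 had 126, 99.1 and 44.3 CPM. Other endothelial cells took the opposite order between replicate 1 and cKit+/DDR2+/CD45-, with Cd74 at 25.8, 174 and 234 CPM. The macrophage markers Lyz2 and C1qa were also lowest in LEC of cKit+/DDR2+/CD45-. They and Cd74 were higher in replicate 2 than in replicate 1, while H2-Aa and H2-Ab1 were lower. Lyz2 had 36.5, 52.1 and 1.34 CPM and C1qa 9.96, 27.2 and 0 CPM in LEC, and the 8 macrophage genes summed to 51.5, 113 and 4.03 CPM. Their part in the result was not tested. At 3000 UMIs, Cd74 had a UMI in 9.21, 24.4 and 2.82% of LEC and in 9.09, 26.5 and 14.1% of the others.

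The remaining lower genes named by the same ranking were Fosl2, Hsph1, Rgs16, Adamts1, Ppp1r15a, Ddit3 and Pim1. Fosl2, an AP-1 factor, had 76.4, 75.9 and 22.8 CPM. Ppp1r15a and Ddit3, genes of the integrated stress response, had 271, 250 and 115 CPM and 68.1, 64.6 and 29.5 CPM. Hsph1, a heat shock protein gene, had 123, 137 and 37.6 CPM in LEC and 92.2, 118 and 34.1 CPM in the others. It was the gene called the same way in both. Of 17 immediate early genes, transcription factors and others that respond fast to stimuli, 2 were lower and none higher in this comparison, against 0.498% and 0.194% over all genes (median log2 ratio -0.86, against 0.01 over all genes). Fos had 1267, 1087 and 630 CPM.

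None of the 12 identity factors measured was 2-fold apart, and of the 25 surface and secreted genes measured only Ptx3 was. Over all genes 0.194% were higher and 0.498% lower, so these counts are near the background and show nothing particular to lymphatic genes. The mean log2 ratio of cKit+/DDR2+/CD45- to cKit+/DDR2- was 0.20 for Prox1, -0.03 for Mmrn1, 0.10 for Flt4, -0.20 for Lyve1 and -0.28 for Reln. Nts differed between replicates, at 1212 CPM in replicate 1, 380 CPM in replicate 2 and 344 CPM in cKit+/DDR2+/CD45-.

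The 18 LEC of the other 2 libraries were too few for the comparisons. The LEC of cKit-/DDR2+ had 4159 UMIs, with 159 of Ccl21a, 16 of Mmrn1, 5 of Reln, 4 of Flt4, 3 of Lyve1 and 2 of Prox1. It carried no UMI of C1qa, Lyz2, Kit or Npr3. The 17 LEC of cKit+/DDR2+/CD45+ had 28107 CPM of Ccl21a, 2872 CPM of Mmrn1 and 2327 CPM of Lyve1. C1qa was detected in 9 of them and Lyz2 in 8, while in the other endothelial cells of that library, chosen without Ptprc, these were detected in 60.6% and 70.5%.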

How the data were processed

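Single-cell RNA was measured in 5 libraries. The authors deposited a natural log value per gene and cell, which the files show to be ln of 1 plus UMIs per 10000. Cell Ranger, Seurat 4.0.4 and the build mm10 are named per the submitters' processing notes, and other settings are not given in the sources used here. All values came out as whole UMIs (tolerance 0.01), with 4047326 to 44847778 UMIs per library, and these counts of UMIs were recovered from the deposited values. Genes that a file does not list were taken as 0. No cell was left out beyond the authors' own filters, and no doublet caller was run.

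UMIs were summed over LEC and over other endothelial cells of each library and scaled to CPM. A gene was called where its log2 ratio after adding 1 CPM passed 2-fold on the same side in each library. The 3 libraries with at least 50 LEC were used, and the mean level had to be at least 50 CPM in 1 of the groups. For the sorts a gene had to pass against both cKit+/DDR2- libraries. The rankings of highest and lowest genes also asked for at least 20 UMIs in the higher group. No test across samples was made. Shares of cells were compared after thinning each cell to 3000 UMIs (seed 1). The calling code was run on simulated counts with counting noise alone, which does not test the calls in these libraries. The members and the 23 pathway lists were chosen with earlier results of these data known. Named genes were those of the rule, the 15 highest and 15 lowest, list members, the 10 highest and 10 lowest between sorts and the 10 most abundant, all without mitochondrial, ribosomal protein, haemoglobin, predicted and sex-linked genes, and 1 of these is not reported here. Gm21541, Gm42418, Xist, Ddx3y, and the genes of the variance and correlation results were named after their values were seen, as were the comparison without Pdgfra-positive cells and the comparisons without shared barcodes, which were chosen after seeing the data. Alternatives covered the rule, the comparison cells, the scaling, the pseudocount, the minimum level, each library left out and the depth of thinning. Python 3.11.15, numpy 2.4.6, scipy 1.17.1, pandas 2.3.3 and matplotlib 3.10.9 were used.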

Additional observations from a re-analysis of the deposited data

Results flagged for a closer look

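Of 213 named genes measured, 10 had a log2 ratio of LEC to other endothelial cells above 0 in both cKit+/DDR2- libraries and below 0 in cKit+/DDR2+/CD45-. In cKit+/DDR2+/CD45- the ratio was -0.85 for Fosl2, -0.62 for Gpihbp1, -0.47 for Ackr3, -0.43 for Bst2, -0.38 for Ddit3, -0.23 for Jund, -0.13 for Btg2, -0.075 for Efna1, -0.046 for Plxna2 and -0.0048 for Ifitm3. In replicates 1 and 2 the ratios were 0.83 and 0.20 for Fosl2, 0.08 and 1.70 for Gpihbp1, 0.32 and 0.30 for Ackr3, 0.61 and 0.10 for Bst2 and 0.43 and 0.03 for Ddit3. They were 0.15 and 0.13 for Jund, 0.89 and 0.29 for Btg2, 0.32 and 0.35 for Efna1, 0.77 and 0.63 for Plxna2 and 0.65 and 0.32 for Ifitm3. Jund, an AP-1 transcription factor gene, was the single one of the 10 whose counting intervals left out 0 in all 3 libraries. Those intervals cover counting error only and leave out the spread between cells. For Jund the ratio of variance to mean over thinned LEC was 4.07, 2.51 and 2.47, so its intervals are too narrow to show a change of sign. Fosl2 and Ddit3 were named for being lower in LEC of cKit+/DDR2+/CD45-, so their sign there follows in part from that choice. How many of all measured genes changed sign in this way was not counted, so the 10 are no result about the sort. The differences between the sorts were not tested, and cKit+/DDR2+/CD45- is 1 library. None of the 10 genes was 2-fold apart on the same side in every library.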

How the results depend on the processing

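No paired analysis was possible because the sorts share only 1 replicate number and no result comes from a test. The share of LEC moved to 26.4% of cKit+/DDR2- replicate 1 and 0.216% of cKit+/DDR2+/CD45+ without cells on shared barcodes, and to 0.226% of cKit+/DDR2+/CD45+ without cells under 2000 UMIs. The counts of genes apart from other endothelial cells were 732 higher and 906 lower with no minimum level, with 44.7% of calls higher against 57.1% and a median log2 ratio of -0.01 against 0.18, and 240 and 170 with a minimum of 100 CPM. Leaving out 1 library gave 405 to 417 higher and 295 to 319 lower. List members lower in LEC numbered 77 with no minimum, where the lists hold 292 genes and 906 of all 16004 genes were lower. Npr3 reversed to 3.93 against comparison cells chosen for Npr3 at 0, which follows from that choice. Between the sorts, lower genes numbered 8 with a pseudocount of 10 CPM. Counts were 445 higher and 594 lower with no minimum and 3 and 8 with a minimum of 100 CPM, and 4 were higher without the cells of highest UMIs. Leaving out 1 cKit+/DDR2- library gave 13 to 50 higher and 38 to 104 lower genes, the lower counts without replicate 1 and the higher without replicate 2. Mean shares of LEC with a UMI were 95.5% for Lyve1, 64.8% for Pdpn, 9.07% for Foxc2, 2.74% for Kit and 12.2% for Cd74 at 3000 UMIs. At 1000 UMIs they were 80.9% for Lyve1, 37.7% for Pdpn, 3.70% for Foxc2, 0.885% for Kit and 4.82% for Cd74. At full depth they were 97.6% for Lyve1, 90.4% for Pdpn, 22.3% for Foxc2, 8.79% for Kit and 25.8% for Cd74. Other causes of these changes were not tested. The cKit+/DDR2+/CD45+ and cKit-/DDR2+ libraries held too few LEC for gene comparisons.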
